A study of Schmidtea mediterranea with 9 samples.

Results

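Neoblasts near an anterior-facing wound were compared with neoblasts near a posterior-facing wound, in the same body region and at the same time. The 6 libraries that carry these labels in their titles, of 9 in the series, were the members. Both groups were dividing stem cells of asexual, starved Schmidtea mediterranea, a planarian flatworm, taken from pre-pharyngeal tissue 48 h after an amputation. In the anterior wound group (3 libraries) the head had been removed. In the posterior wound group (3 libraries) the tail and the pharynx had been removed. The remaining group (3 libraries), harvested at 0 h and labelled as control, is used here only to show where the level before the response lay. There is no uninjured group at 48 h. The cells were live cells sorted by flow cytometry for more than the diploid DNA content, and poly(A) RNA was sequenced. The labels do not say whether libraries came from separate animals, so the p-values rest on a spread between libraries that may be purely technical.

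Neoblasts are the only dividing somatic cells of a planarian and the source of all its new tissue. A wound that faces forward regrows a head, and a wound that faces backward regrows a tail. The direction of regrowth is set by position signals, in which Wnt signalling marks the posterior end and its inhibition the anterior end, and which come largely from muscle. Neoblasts near a wound also take on the fates of the tissue that is missing, and a head and a pharynx with a tail differ in the tissue they need. The comparison thus asks whether the RNA of sorted neoblasts from 1 body region differs with the wound they face. In RNA of sorted bulk cells, fewer cells of a type and less RNA per cell cannot be told apart.

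Reads were counted on assembled contigs, and the counts of contigs that share a component identifier were summed; a component stands roughly for a gene. No gene name is paired with a component in the files used here. Components are therefore called by identifier, and neither the neoblast label nor lists of fate and position genes could be checked by name. Anterior libraries held between 18612082 and 20426337 mapped reads, posterior libraries between 17017960 and 19412889, and control libraries between 14674800 and 23700877. Unmapped reads were 4.44 ± 0.29% of the reads in anterior, 4.81 ± 0.77% in posterior and 7.04 ± 3.78% in control libraries (SD, n = 3 each). Anterior libraries had reads on 39558 ± 487 components and posterior libraries on 39566 ± 2667 (SD, n = 3 each), of 46724 in all. The ranges of all 3 measures overlapped between the wounds. A two-sided exact permutation test gave p = 1.0 for components with reads, 0.6 for unmapped reads and 0.2 for mapped reads, but 3 against 3 libraries allow no p below 0.1, so it could not have passed.

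The libraries of the posterior wound were less even than those of the anterior wound, and the controls, which enter the estimate of spread over 9 libraries, were the least even. Over the 8062 components with a mean above 8 CPM (counts scaled to library size) in the 6 wounded libraries, the median absolute log2 difference within the anterior group was 0.11 to 0.13 for its 3 pairs. Within the posterior group it was 0.12 between replicates 1 and 2, 0.24 between replicates 1 and 3, and 0.34 between replicates 2 and 3. Within the controls it was 0.29 between replicates 1 and 2, 0.38 between replicates 1 and 3, and 0.15 between replicates 2 and 3. The median SD of the log2 level was 0.11 in the anterior, 0.19 in the posterior and 0.23 in the control libraries. Between the wounds the 9 pairs lay between 0.13 and 0.21. By this median, posterior replicates 2 and 3 thus differed from each other by more than any anterior library differed from any posterior one. Components more than 2-fold apart numbered 325 between posterior replicates 2 and 3, but 343 between anterior replicate 2 and posterior replicate 3. The other pairs between the wounds had 48 to 189. Posterior replicate 3 was the library farthest from its group median at 70.3% of these components, and anterior replicates 1 to 3 were farthest from theirs at 27.5%, 39.6% and 32.9%. It also had reads on the fewest components of the 9 libraries, 36643. On a principal component analysis of the 6 wounded libraries, the first component (43.6% of the variance) placed posterior replicate 3 at 83.6 and posterior replicate 2 at -53.3, with the anterior libraries between -18.3 and 2.77. The second component (21.0%) placed the anterior libraries at 2.60, 56.1 and 11.5 and the posterior libraries at -21.9, -29.7 and -18.6, so that along it the wounds did not overlap.

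**Figure D1:**
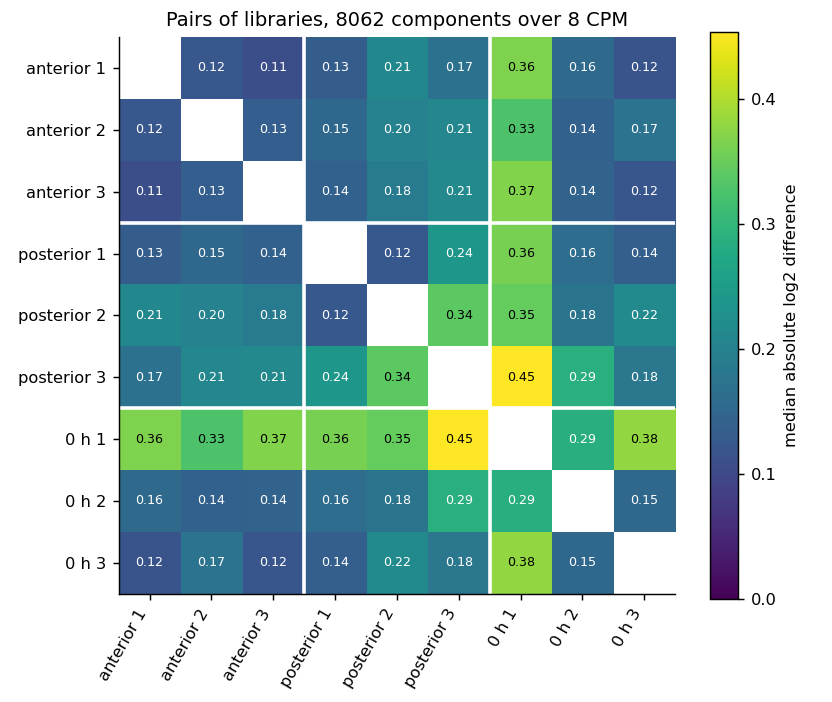
Median absolute log2 difference in TMM-scaled CPM between each pair of libraries, over 8062 components above 8 CPM; rows and columns are the libraries by group and replicate, and white lines divide the groups. The pair of posterior replicates 2 and 3 (0.34) differs more than any anterior with posterior pair (0.13 to 0.21).

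No component differed between the wounds at an adjusted p under 0.05 (edgeR quasi-likelihood F test, Benjamini-Hochberg), which is 0 of 21322 tested (0%). The lowest adjusted p was 0.904, which 11 components shared. At an unadjusted p under 0.05, 185 components (0.868% of those tested) were higher and 396 (1.86%) were lower after the anterior wound. Both directions together were 581 components (2.72%), fewer than the share of 0.05 that the threshold would pass if nothing differed. An edgeR fit without the control libraries passed 866 of 19584 unadjusted (4.42%), 214 higher and 652 lower. Over the 9 libraries limma-voom also called 0 components, with 170 higher and 411 lower at an unadjusted p under 0.05. DESeq2 on the same 21322 components called 14, of which 1 had the higher level after the anterior wound and 13 the lower, with 118 and 388 at an unadjusted p under 0.05. Every anterior library lay above every posterior library at 783 components (3.67%), and every anterior library lay below every posterior library at 1269 (5.95%). With upper quartile scaling in place of TMM these counts were 1135 and 1170, an almost even split. With TMM both directions together held 9.62%, near the share of 0.1 that a random order of 3 against 3 libraries gives.

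The levels of most abundant components were bounded to a narrow range between the wounds. The 95% interval of the log2 fold change lay within 2-fold in either direction for 11473 components (53.8%), and for 7544 of the 8062 components above 8 CPM (93.6%). For 5666 of those 8062 (70.3%) it lay within 1.5-fold. These intervals are per component and not adjusted. The share bounded within 2-fold was 5.59% below 1 CPM, 45.2% from 1 to 4 CPM, 80.4% from 4 to 16 CPM, 94.3% from 16 to 64 CPM and 98.7% above 64 CPM. For most components below 1 CPM these libraries thus did not bound the difference within 2-fold. Over all components tested the log2 fold change had a median of -0.0037 and quartiles of -0.18 and 0.14, with a median standard error (SE) of 0.33, or 0.17 above 8 CPM.

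**Figure D2:**
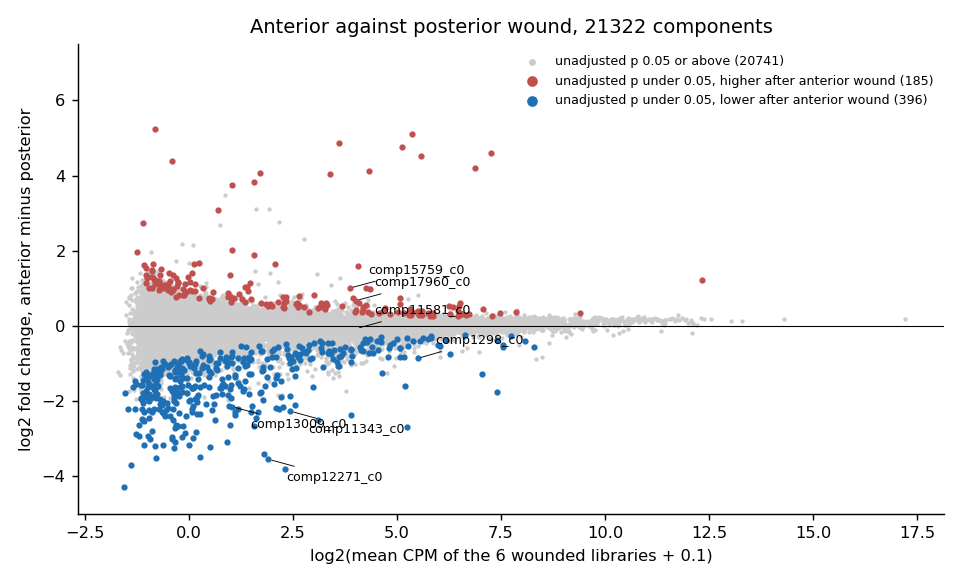
Log2 fold change of the anterior over the posterior wound (y axis) against mean level in the 6 wounded libraries (x axis, log2 of CPM plus 0.1) for each of 21322 components; coloured points have an unadjusted p under 0.05, and none passed after adjustment. Of the coloured points, 185 lie above 0 and 396 below, and 7 components are labelled.

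In each direction 2 components were named by a rule, which took the lowest p among those without overlap of the wound groups whose higher group averaged 2 CPM or more. On the higher side stood comp15759_c0, 1 contig of 1566 bases. It had 16.1, 23.0 and 18.8 CPM in anterior replicates 1 to 3, against 9.35, 9.99 and 9.52 CPM in posterior replicates 1 to 3. The controls had 7.05, 7.18 and 7.58 CPM. All 3 anterior libraries were high, and the posterior libraries lay between them and the controls without overlapping either. The log2 fold change between the wounds was 1.00 (SE 0.17, 95% interval 0.62 to 1.39), or 2.01-fold, with an edgeR adjusted p of 0.904. DESeq2 gave an adjusted p of 0.00132, the only DESeq2 call on the higher side.

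The other component on the higher side was comp17960_c0, 1 contig of 803 bases, which earlier results of these data place above the controls after either wound. Its level was 19.1, 21.3 and 18.6 CPM in the anterior libraries, against 12.8, 13.1 and 11.1 CPM in the posterior libraries and 4.57, 4.64 and 4.18 CPM in the controls. The 3 groups formed steps with no overlap, highest after the anterior wound. Between the wounds its log2 fold change was 0.67 (SE 0.16, 95% interval 0.32 to 1.02), or 1.59-fold, with an edgeR adjusted p of 1.0.

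On the lower side stood comp13009_c0, of 3 contigs, the longest of 869 bases. It was weakly expressed, with 10, 16 and 14 reads (0.50, 0.86 and 0.78 CPM) in the anterior libraries, against 67, 57 and 52 reads (3.71, 2.82 and 3.00 CPM) in the posterior libraries. The controls had 1.24, 0.77 and 0.47 CPM, close to the anterior libraries and below every posterior one. The log2 fold change between the wounds was -2.15 (SE 0.38, 95% interval -2.98 to -1.32, edgeR adjusted p = 0.904), a level 4.43-fold lower after the anterior wound. Here the posterior libraries were the ones set apart from the controls.

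The other component on the lower side was comp11343_c0, of 2 contigs, the longest of 428 bases. It had 1.92, 1.77 and 1.78 CPM in the anterior libraries, against 9.13, 7.96 and 9.35 CPM in the posterior libraries. Its controls were uneven, at 4.89, 2.36 and 9.61 CPM: control replicate 3 lay at the posterior level and control replicate 2 near the anterior one. The log2 fold change between the wounds was -2.27 (SE 0.42, 95% interval -3.19 to -1.35, edgeR adjusted p = 0.904), a level 4.83-fold lower after the anterior wound.

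Both remaining components that earlier results of these data show above the controls after either wound were read here between the wounds. The first, comp11581_c0 (1307 bases), had 15.1, 15.5 and 16.3 CPM in the anterior libraries, against 18.8, 15.5 and 15.1 CPM in the posterior libraries and 2.28, 3.70 and 4.27 CPM in the controls. The wound groups overlapped, with a log2 fold change of -0.07 (SE 0.21, 95% interval -0.55 to 0.40, edgeR adjusted p = 1.0), so a difference of more than 1.5-fold in either direction lies outside that interval. Without posterior replicate 1 the log2 fold change was 0.034. The second, comp1298_c0 (640 bases), had 32.6, 34.0 and 29.1 CPM in the anterior libraries, against 48.4, 61.2 and 64.7 CPM in the posterior libraries and 5.42, 7.22 and 11.9 CPM in the controls. Here the groups formed steps again, but in the opposite order to comp17960_c0, with the posterior libraries highest. Its log2 fold change between the wounds was -0.87 (SE 0.24, 95% interval -1.40 to -0.34, edgeR adjusted p = 1.0).

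**Figure D3:**
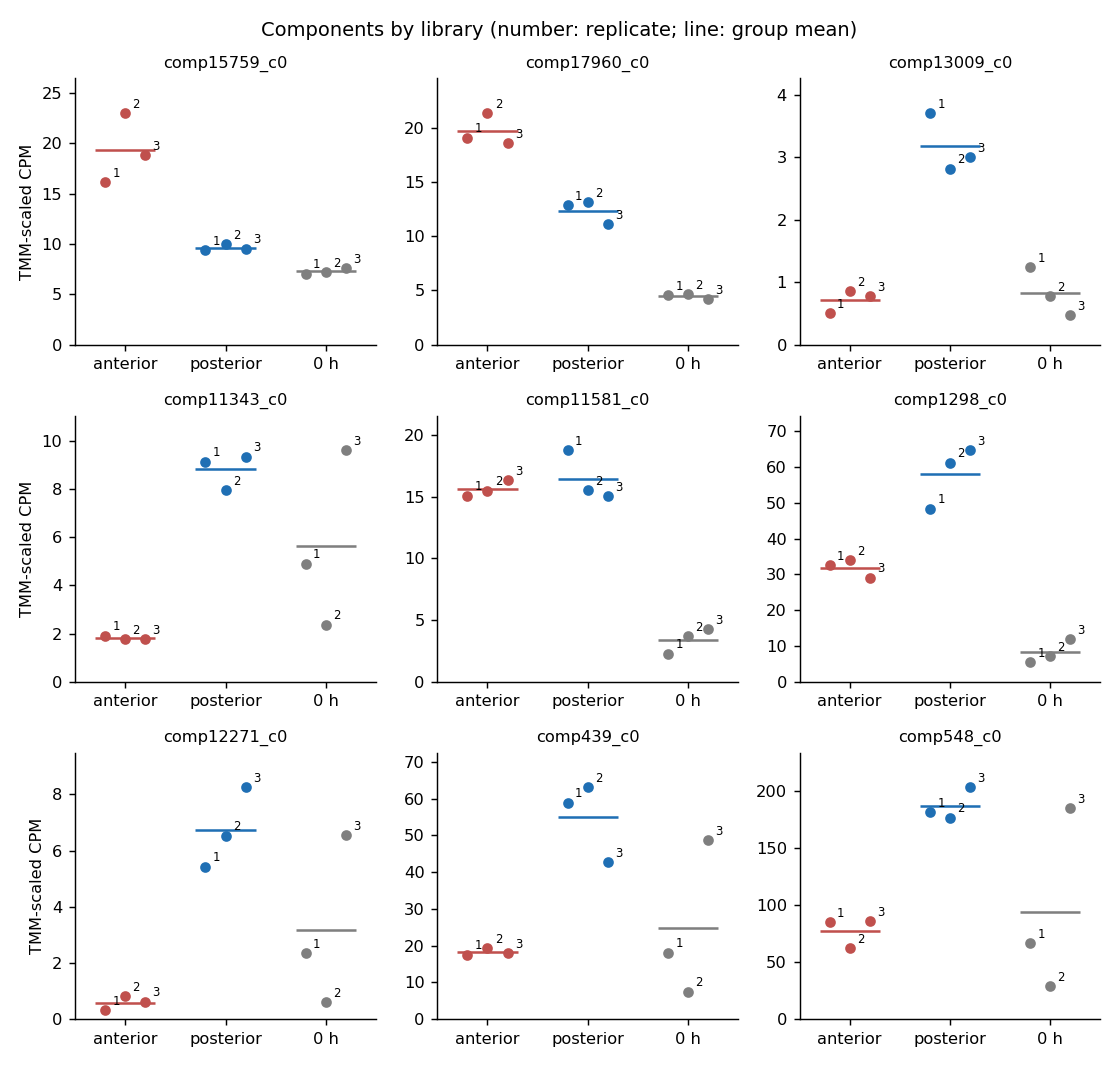
TMM-scaled CPM of 9 components in each library (points, numbered by replicate) with group means (lines), for the anterior wound, the posterior wound and the 0 h control. The wound groups do not overlap in any panel but that of comp11581_c0, and in comp11343_c0 and the bottom row control replicate 3 lies at or near the posterior level.

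When the fit held the 6 wounded libraries alone, with the controls left out of the estimate of spread, edgeR called 4 components, all lower after the anterior wound (0.0204% of 19584 tested, Benjamini-Hochberg adjustment). This count depended on the choice of test and filter. On the same 6 libraries limma-voom called 1 of 19584, and edgeR with a filter at 5 CPM called 1 of 9215. There edgeR with a replicate block called 0 (lowest adjusted p = 0.0619), and DESeq2 called 95 of 19584, 6 higher and 89 lower. The common coefficient of variation was 21.7% in this fit and 26.9% over the 9 libraries. Besides comp11343_c0 (edgeR adjusted p = 0.0222) these were comp12271_c0, comp439_c0 and comp548_c0, named after their values were seen. The component comp12271_c0 (263 bases) had 6, 15 and 11 reads in the anterior libraries (0.30, 0.80 and 0.61 CPM), against 98, 132 and 143 reads in the posterior libraries (5.42, 6.53 and 8.25 CPM). Its log2 fold change in the fit of the 6 libraries was -3.55 (SE 0.35, edgeR adjusted p = 0.0244), and its controls had 2.35, 0.60 and 6.55 CPM. Over the 9 libraries its SE was 0.72 (edgeR adjusted p = 0.904).

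The component comp439_c0 (594 bases) stood at 17.5, 19.2 and 17.8 CPM in the anterior libraries, against 59.0, 63.1 and 42.6 CPM in the posterior libraries, a log2 fold change of -1.60 (SE 0.16, edgeR adjusted p = 0.0244). For comp548_c0 (1539 bases) the levels were 84.6, 61.8 and 86.0 CPM in the anterior libraries, against 181.2, 176.6 and 203.1 CPM in the posterior libraries, a log2 fold change of -1.27 (SE 0.14, edgeR adjusted p = 0.0387). Over the 9 libraries the SE was 0.50 for comp439_c0 and 0.49 for comp548_c0. Neither was called there by edgeR or by DESeq2 (DESeq2 adjusted p = 0.233 and 0.9998). In the controls comp439_c0 had 18.0, 7.39 and 48.7 CPM and comp548_c0 had 66.6, 28.8 and 184.9 CPM. At all 4 components control replicate 3 lay within or above the range of the posterior libraries, and the other controls lay below every posterior library. The fit called 0 components without any 1 of anterior replicates 1, 2 and 3, or without posterior replicate 1, with edgeR adjusted p for the 4 between 0.130 and 0.274. Their log2 fold changes in those fits were -2.29 to -2.25 for comp11343_c0, -3.87 to -3.22 for comp12271_c0, -1.64 to -1.54 for comp439_c0 and -1.35 to -1.13 for comp548_c0. Without posterior replicate 2, 5 of 20235 tested were called. Without posterior replicate 3, 35 of 20758 were called, 9 higher and 26 lower after the anterior wound, the 4 among the lower ones. At those 35 components posterior replicate 3, which that fit did not use, lay on the posterior side of every anterior library at 8 of the 9 higher and 24 of the 26 lower ones. Over all components of that fit it did so at 26.7% of the 9583 with a higher and 26.5% of the 11175 with a lower fitted value. Where posterior replicates 1 and 2 both lay beyond every anterior library, it did so at 21.1% of 3598 higher and 36.1% of 3345 lower components. These shares are not matched to the 35 on fold size or p. The fit was also chosen after the data were seen, so the comparison is a description.

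Of the 14 components that DESeq2 called over the 9 libraries, 2 were among these 4 (comp11343_c0 and comp12271_c0). At all 14 the wound groups did not overlap, against 9.62% of all components tested, but the same contrast chose the 14, so this is a description. The rule for named components had already reached 3 of them, comp15759_c0, comp13009_c0 and comp11343_c0. None of the 14 passed edgeR's adjusted test over the 9 libraries, and 2 passed it over the 6.

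Large differences were unlike in their build on the 2 sides. After the anterior wound, 24 components were higher by more than 4-fold in the fitted value, but the wound groups overlapped at all but 3 of them. At 18 of the 24, anterior replicate 1 alone held more than 50% of the CPM summed over the wounded libraries, and at 4 more it was anterior replicate 2. The 24 together held 2503.2, 108.5 and 87.8 CPM in anterior replicates 1 to 3, against 12.8, 94.4 and 28.3 CPM in posterior replicates 1 to 3, while the controls held 46.9, 1026.0 and 10.1 CPM. Anterior replicate 1 and control replicate 2 thus stood far above the other 7 libraries. On the other side 90 components were lower by more than 4-fold, and at 85 of these the wound groups did not overlap. They held 68.2, 33.9 and 47.9 CPM in the anterior libraries, against 205.9, 374.1 and 287.6 CPM in the posterior libraries and 263.5, 82.8 and 205.2 CPM in the controls. No single library carried this side: the highest value lay in posterior replicates 1, 2 and 3 at 13, 30 and 47 of the 90. Over all components tested the wound groups did not overlap at 9.62%. Since fold size and group separation come from the same contrast, the counts on both sides are a description.

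At an unadjusted p under 0.05, lower components outnumbered higher ones in every class of level up to 16 CPM and in every class of contig length. Over all classes the direction turned when posterior replicate 3 was left out, to 809 higher and 663 lower. Below 1 CPM, 63 were higher and 169 lower after the anterior wound (together 3.56% of 6510 components). The counts were 34 and 113 from 1 to 4 CPM (2.90% of 5061), and 32 and 66 from 4 to 16 CPM (2.84% of 3450). From 16 to 64 CPM the counts were level, 36 higher and 36 lower (1.83% of 3944). Above 64 CPM 20 were higher and 12 lower (1.36% of 2357). Among components whose longest contig had at most 500 bases, 57 were higher and 194 lower (3.64% of 6892). The counts were 42 and 89 above 500 and up to 1000 bases (2.12% of 6188), and 57 and 80 above 1000 and up to 2000 bases (2.59% of 5297). Over 2000 bases they were 29 and 33 (2.11% of 2945). The share was under 0.05 in every class. The median longest contig was 518 bases for the 396 lower components, 812 bases for the 185 higher ones and 754 bases for all components tested. The parts of level and of contig length in this were not tested.

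The 0 h level was set beside both wounds. Of the 396 components that were lower after the anterior wound at an unadjusted p under 0.05, the control mean lay between the wounds at 292 (73.7%), below both at 71 (17.9%) and above both at 33 (8.33%). Over all 10820 components with a lower fitted value it lay between at 2256 (20.9%). Of the 185 that were higher, the control mean lay between at 110 (59.5%), above both at 58 (31.4%) and below both at 17 (9.19%), against 2649 between (25.2%) of all 10502 with a higher fitted value. A wide gap between the wounds leaves more room for a control mean to lie between them. The control mean was nearer to the anterior wound at 134 of the 185 higher components (72.4%), against 59.4% of all with a higher fitted value. At the lower ones it was nearer to the anterior wound at 233 of 396 (58.8%), close to the 55.6% of all with a lower fitted value. These shares come from the contrast that chose the components, and are given as a description.

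**Figure D4:**
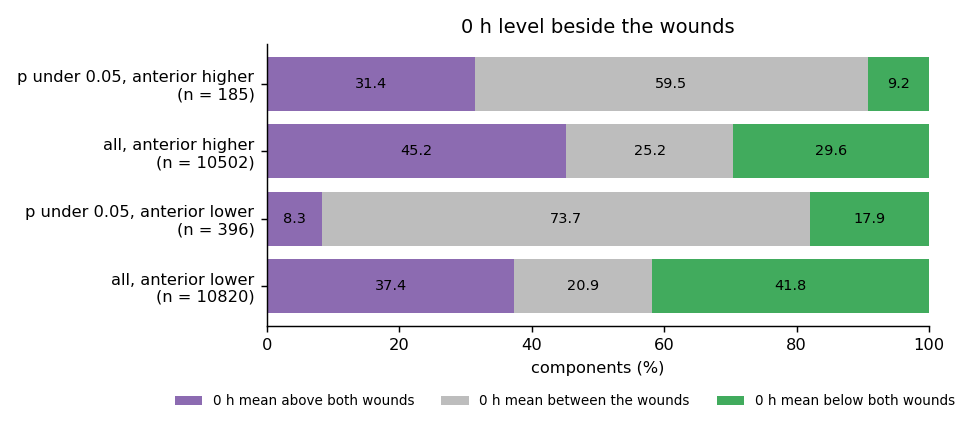
Position of the mean 0 h level relative to the means of the wounds, as the percentage of components with the control above both, between or below both, for components at an unadjusted p under 0.05 and for all components, by direction after the anterior wound. The control mean lay between the wounds at 59.5% of the 185 higher and 73.7% of the 396 lower components.

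The control libraries did not act alike at these components. Control replicate 3 was the highest of the 3 controls at 229 of the 396 lower components (57.8%), control replicate 1 at 139 (35.1%) and control replicate 2 at 28 (7.07%). Over all components tested these shares were 36.1%, 37.4% and 26.5%. At the 185 higher components control replicate 2 was the highest most often, at 84 (45.4%). At components that were lower after the anterior wound, control replicate 3 was thus most often the highest control and control replicate 2 least often. The part of this spread between control libraries in the difference between the wounds was not tested.

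Components detected after 1 wound only had few reads. There were 86 components with at least 1 read in every anterior library and 0 in the posterior libraries, and 153 with the reverse, of 46724. The highest total of reads was 11 over the 3 anterior libraries and 20 over the 3 posterior ones. A count of 0 allows up to 3 reads for a group, so most of these differences lie close to the limit of detection. With at least 5 reads in every library of a wound, there were 0 on the anterior side and 1 on the posterior side. That component, comp24023_c0 (773 bases, named after its values were seen), had 0 reads in each anterior library, against 5, 6 and 9 reads in the posterior libraries and 12, 2 and 4 reads in the controls.

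Use of contigs within a component, which can reflect transcript forms, alleles or assembly fragments, was tested for 4728 components with at least 2 contigs above the filter. edgeR's test of contig usage called 0 after Benjamini-Hochberg adjustment (0%, lowest adjusted p = 1.0), and 15 (0.317%) had an unadjusted p under 0.05. Contigs of 1 component share sequence, so how the aligner divided shared reads among them is part of each share. The lowest p among components of at least 2 CPM was that of comp11554_c0, which has 5 contigs. Its shortest contigs, of 371 and 323 bases, made up few of its reads. The contig of 371 bases held 0, 0 and 1.53% of the reads of the component in the anterior libraries, against 6.79, 4.80 and 4.14% in the posterior libraries and 2.17, 0.72 and 4.60% in the controls. The wound groups did not overlap, with 0, 0 and 3 reads of that contig in the anterior libraries, against 18, 12 and 12 reads in the posterior libraries. The contigs of 823, 775 and 550 bases held 30.5, 34.9 and 33.0% on average in the anterior libraries, against 30.8, 32.7 and 26.9% in the posterior libraries.

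The next was comp6626_c0, with 3 contigs, where the shortest, of 220 bases, held 0.41, 0.43 and 2.46% of the reads in the anterior libraries, against 5.51, 4.42 and 6.75% in the posterior libraries and 2.63, 0.84 and 7.19% in the controls. In both components a short contig was rarer after the anterior wound, while the totals stood close together: comp11554_c0 had 11.8, 12.8 and 10.9 CPM in the anterior libraries, against 14.7, 12.4 and 16.7 CPM in the posterior libraries. At comp6626_c0 the totals were 12.4, 12.4 and 11.3 CPM after the anterior wound, against 13.1, 12.3 and 14.5 CPM after the posterior wound. At the short contigs, too, control replicate 3 was the highest control.

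Of the libraries left out singly, posterior replicate 3 moved the number of components passing without adjustment the most. When it was left out, 809 components were higher and 663 lower after the anterior wound at an unadjusted p under 0.05 (6.45% of 22833 tested), against the 185 and 396 over all libraries, and the lowest edgeR adjusted p was 0.635, so again 0 were called. Leaving out any other single library gave between 412 and 845 components (1.82% to 3.72%). With posterior replicate 3 out, the split moved from mostly lower to mostly higher.

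The deposited table of summed counts gave 1227 (5.69%) in place of 581 (2.72%) components at an unadjusted p under 0.05. Of the 1227, 425 were higher and 802 lower, with 0 called after adjustment by edgeR. In that table the column of posterior replicate 3 repeats the values of posterior replicate 2 for all 7189 components of several contigs. Among components of several contigs, 699 (11.1%) passed without adjustment with the deposited sums, against 116 (1.87%) with sums taken here from each library's own counts. Among components of 1 contig, whose values for posterior replicate 3 are the same in both inputs, 528 (3.45%) passed with the deposited table and 465 (3.08%) with the sums made here.

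**Figure D5:**
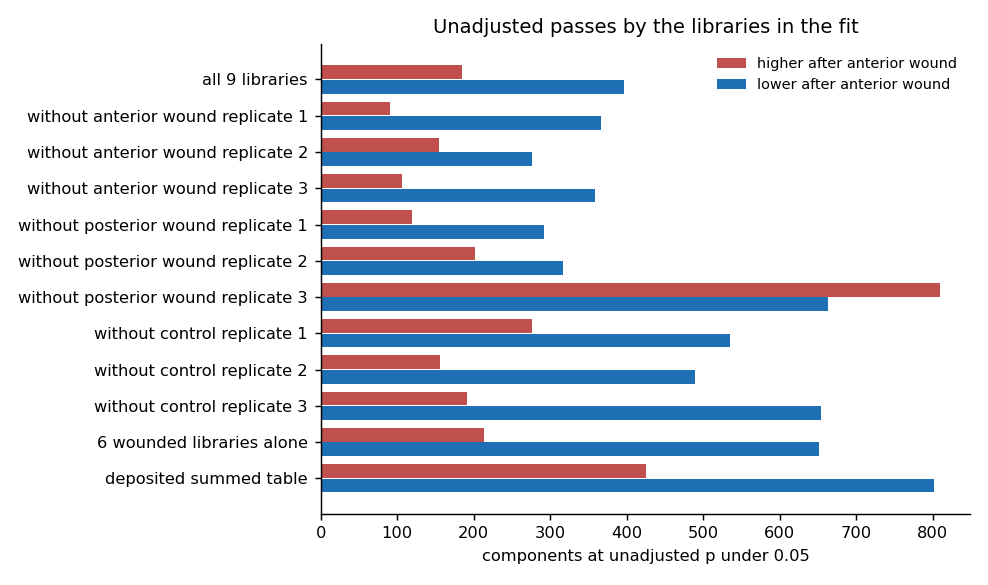
Number of components at an unadjusted p under 0.05 that were higher (red) or lower (blue) after the anterior wound, by the libraries or the input table of the fit. Without posterior replicate 3 the counts were 809 higher and 663 lower, against 185 and 396 with all 9 libraries.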

How the data were processed

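The authors deposited, for each of the 9 libraries, raw counts of reads on each contig, beside its length, and the unmapped reads. Per the submitters' processing notes, Bowtie2 2.0, SAMtools and DESeq were used; for the assembly, the name is not given in the sources. The counts of 63423 contigs were summed to 46724 components by dropping the contig suffix. A deposited table of summed counts served as an alternative input only, because of its repeated column. Its control columns and a pair of anterior columns with the same header entered by group (0 columns had none). The authors' table of DESeq results holds no comparison between the wounds and was not used.

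The test was that of edgeR 4.0.16 (R 4.3.3), with TMM (trimmed mean of M values) scaling, filterByExpr (minimum count 10), 1 quasi-likelihood fit of 3 groups over 9 libraries, the contrast anterior minus posterior, and p-values adjusted by Benjamini-Hochberg over all components tested (calls at 0.05). The components tested held between 99.5% and 99.8% of the mapped reads. CPM are TMM-scaled, and log2 levels of libraries used a prior count of 2. The SE is the absolute log2 fold change over the square root of F. Contig usage was tested with diffSpliceDGE and Simes p-values. Scripts were tested on simulated data. Components were named by the rule given in the text, which allows 2 identifiers per direction without gene names. Members, lists and tests were chosen with earlier results of these data known. Marker lists for neoblast, epidermal, gut, neural, muscle, excretory, eye, pharynx, head and tail genes could be matched to 0 components.

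Alternatives were DESeq2's size factors, upper quartile scaling, no filter, limma-voom (limma 3.58.1), DESeq2 1.42.0, at least 5 CPM in 3 libraries, the 6 wounded libraries alone, a replicate block, each library or certain pairs left out, contigs not summed, the deposited sums and a minimum log2 fold change of 1. Those of the 6-library fit were chosen after seeing the data. Within a wound, every pair of replicates had a chi-square of at least 5.66 per degree of freedom, above counting noise, so no pair was treated as a single library. This does not show that they came from separate animals.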

Additional observations from a re-analysis of the deposited data

How the results depend on the processing

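No component was called between the wounds by edgeR's adjusted test under the other scalings, filters, inputs or left-out libraries. The exceptions were DESeq2 with 14 and the 6 wounded libraries alone with 4. In the main fit 581 components (2.72%) had an unadjusted p under 0.05, and 2052 (9.62%) had no overlap of the wounds. Without a filter these numbers were 1223 and 3881 (2.67% and 8.47% of 45829 tested). They were 225 and 1181 at 5 CPM (2.35% and 12.4% of 9559), and 1227 and 3614 with the deposited sums (5.69% and 16.7% of 21577). Without control replicate 1 and posterior replicate 3 both, they were 2538 and 7351 (11.3% and 32.8%). Without control replicate 3 and anterior replicate 2 both, 3576 (16.1%) did not overlap. A filter changes how many components are tested, and with fewer libraries in a wound group a random order separates the groups more often. Beyond this the causes were not tested. With 1 library left out, 412 to 1472 passed unadjusted (1.82% to 6.45%). Those without overlap were 2111 to 2148 (9.39% to 9.52%) with a control left out. With a wounded library left out they were 3103 to 4526 (13.7% to 20.3%), except for 7476 (32.7%) without posterior replicate 3. Components detected after 1 wound only, 239 in all, fell to 1 with a minimum of 5 reads. The fit of the 6 wounded libraries called 95 of 19584 components by DESeq2, 1 of 19584 by limma-voom and 1 of 9215 at 5 CPM. It called 0 to 35 with 1 library left out, the 35 of 20758 tested. The log2 fold change of comp11581_c0 was -0.13 without posterior replicate 2 and turned to 0.034 without posterior replicate 1.

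With a replicate block, 0 components were called and 686 passed unadjusted, and in the 6 wounded libraries 0 were called (lowest edgeR adjusted p = 0.0619), against 4 without it. Same-numbered libraries of the 2 wounds did not deviate together (r of -0.18, -0.04 and -0.18), so the numbers were not taken to pair the wounds. Same-numbered posterior and control libraries had r of 0.05, 0.35 and 0.45, against -0.48 to 0.22 for different numbers. For anterior and control libraries r was -0.24, 0.15 and 0.09, against -0.32 to 0.24 for different numbers. Deviations from a group's own mean are not independent of each other, so these r do not show a pairing. The bounds were wide at low levels: 5.59% of components below 1 CPM were bounded within 2-fold between the wounds, and 98.7% of those above 64 CPM. That number over all components, 11473, lay between 9645 and 12112 with 1 library left out. The parts of depth, library spread and group size in this were not tested.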
